A study of Mus musculus with 9 samples.

Results

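Creatine kinase and phosphotransfer genes were followed in right ventricular myocardium after pulmonary banding. The set was every probe set whose gene symbol in the array's annotation is Ckm, Ckb, Ckmt2, Slc6a8, Ak1, Ak3 or Ak4, which gave 16 probe sets of 7 genes, out of 34945 probe sets that name 1 gene and 18193 genes in all. Pulmonary banding narrows the outflow to the lungs so that the right ventricle pumps against a raised pressure, and sham mice are operated on without the narrowing. All mice were male C57BL6J animals of 6 to 8 weeks, with 5 banding and 4 sham arrays (the series text gives the number 5 without saying whether it holds for each group), and no other genotype, agent or allele is named. The sources used here do not say how long after surgery tissue was taken or whether animals were pooled. Replicates carry numbers but are not said to be separate animals, so p-values measure only the spread between these samples, which may be technical.

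Heart muscle uses ATP faster than it can store it, and phosphotransfer enzymes carry the energy-rich phosphate from mitochondria to the contractile proteins and ion pumps. In the creatine kinase shuttle, the mitochondrial enzyme encoded by Ckmt2 charges creatine to phosphocreatine, and the cytosolic muscle and brain subunits, encoded by Ckm and Ckb, use phosphocreatine to restore ATP where it is spent. Heart cells do not make enough creatine themselves and take it up through the transporter encoded by Slc6a8. Adenylate kinases recover ATP from ADP and produce AMP as a signal of energy shortage. Ak1 lies in the cytosol and Ak3 and Ak4 in the mitochondrial matrix, where Ak3 prefers GTP as the phosphate donor. The failing heart is known for a lowered creatine kinase system and for a return of isoforms that the fetal heart uses.

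The 3 creatine kinase genes did not move together, and the sequences before their start sites are shown so that the proximal promoters of genes that went opposite ways can be set side by side. They are the 250 bases upstream of the RefSeq start site on build GRCm38.p6, written 5′ to 3′ on the gene's strand, at chr7:19410844-19411093 on the + strand for Ckm, chr12:111672339-111672588 on the - strand for Ckb and chr13:91876886-91877135 on the - strand for Ckmt2. Capitals mark every match to the motifs searched on both strands. These were the TATA box as TATAAA, the CCAAT box as its 5 letters, the E-box of basic helix-loop-helix factors as CANNTG, the core of the oestrogen-related receptor site as AAGGTCA, the muscle element M-CAT as CATTCC, the MEF2 site and the CArG box.
Ckm: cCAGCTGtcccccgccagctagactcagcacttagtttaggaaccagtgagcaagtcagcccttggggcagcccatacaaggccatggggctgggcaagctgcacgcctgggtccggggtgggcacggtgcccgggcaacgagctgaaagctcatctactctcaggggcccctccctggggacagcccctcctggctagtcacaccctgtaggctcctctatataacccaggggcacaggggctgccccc
Ckb: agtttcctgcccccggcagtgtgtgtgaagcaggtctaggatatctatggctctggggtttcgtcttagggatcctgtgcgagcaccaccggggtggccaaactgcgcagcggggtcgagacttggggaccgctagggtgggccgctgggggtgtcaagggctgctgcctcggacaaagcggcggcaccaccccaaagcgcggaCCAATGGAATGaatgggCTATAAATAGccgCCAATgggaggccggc
Ckmt2: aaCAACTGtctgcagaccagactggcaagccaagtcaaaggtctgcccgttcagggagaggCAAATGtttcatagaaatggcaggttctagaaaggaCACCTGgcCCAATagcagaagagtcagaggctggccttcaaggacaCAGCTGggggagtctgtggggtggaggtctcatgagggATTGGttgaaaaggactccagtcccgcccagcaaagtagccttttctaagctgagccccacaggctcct

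The Ckb window, the only one of these 3 whose gene rose, held 1 TATA box that lies inside its 1 match to the MEF2 site, 2 CCAAT boxes and 1 M-CAT match on the opposite strand. The Ckmt2 window held 4 E-boxes and 2 CCAAT boxes, and the Ckm window held 1 E-box. The Ckm window also holds the letters tatataa near its start site, which the pattern TATAAA does not match. That no TATA box is marked there thus depends on the pattern searched. Among 32851 RefSeq promoter windows of the same length, 12.4% held the TATA box, 33.8% the CCAAT box, 66.2% an E-box, 4.08% the receptor core, 12.6% the M-CAT element, 0.508% the MEF2 site and 1.47% the CArG box. These matches describe letters in the windows and say nothing of which factors bind. Of the 7 genes, 6 had at least 1 window in the table, and Slc6a8 was the gene without one.

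Values are log2 expression per probe set as the authors deposited them, so 1 unit is a doubling. Where a gene has several probe sets, the one that was brightest on average across the 9 arrays stands for it, and the change is the banding mean minus the sham mean, tested with limma and adjusted by Benjamini-Hochberg over all 18193 genes at a threshold of 0.05. A group mean under 4.20, which is 2 log2 units above the lowest value in the table, was treated as dim. Of the 7 genes, 2 were higher in banding (Ckb and Slc6a8), 4 were lower (Ckm, Ckmt2, Ak1 and Ak4) and Ak3 did not pass. Over all genes tested 38.4% passed, 18.4% higher and 20.0% lower, and among the 11013 genes that were not dim in both groups 62.0% passed, which is the share to set beside these 7 well-detected genes. The median difference was -0.35 over the 7 genes and 0.00 over all genes. The groups did not overlap in 6 of the 7 genes, against 36.7% of all genes, of which 17.4% lay higher and 19.3% lower in banding. That 36.7% takes in the 7180 genes dim in both groups, so it is not a like share. No excess is read from it.

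**Figure D1:**
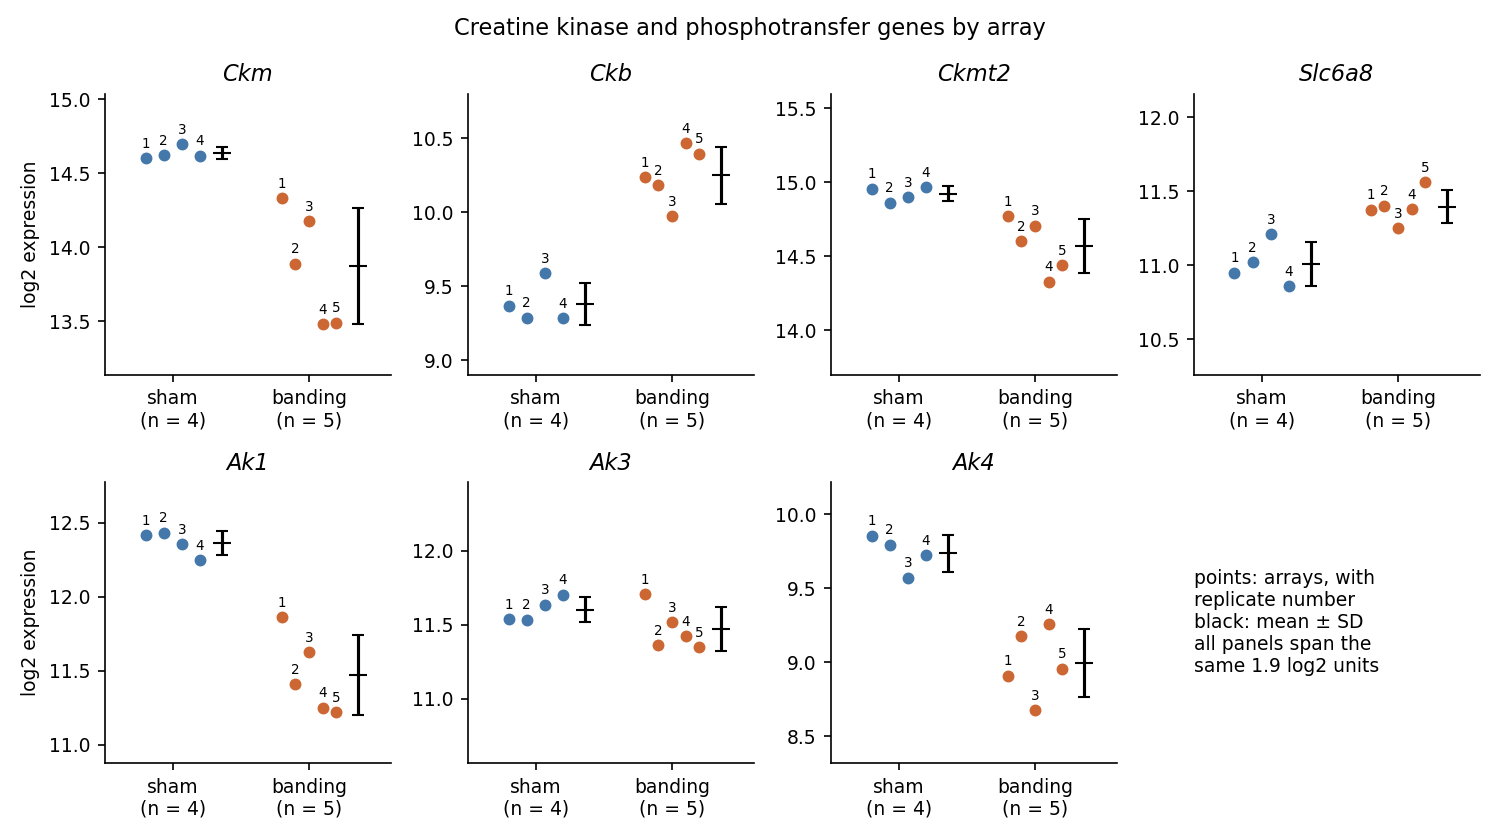
Log2 expression of the 7 genes on each array (1 point per array, labelled with its replicate number; blue, sham, n = 4; orange, banding, n = 5; black bar, mean ± SD). Every banding array lies below every sham array for Ckm, Ckmt2, Ak1 and Ak4 and above for Ckb and Slc6a8, while Ak3 overlaps.

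The whole table has features that touch these genes. Ventricular cardiomyocyte markers were well detected on every array, with a mean over 12 markers of 15.01 to 15.07 in sham and 14.69 to 14.93 in banding, and 6 of them were lower, 1 higher and 5 did not pass. Markers of fibroblasts (9 of 9), smooth muscle (4 of 5), endothelium (4 of 7), macrophages (6 of 7) and nerve (2 of 3 found) were higher in banding. Liver markers averaged 9.45 to 13.39 in sham and 2.73 to 5.11 in banding. Skeletal muscle markers averaged 5.91 on sham replicate 4 and 2.68 to 3.28 on all other arrays, and 0 of 8 passed. Of these 8, 7 were highest on sham replicate 4, among them Myh1, which also read 5.17 and 6.24 on sham replicates 2 and 3. Tnnt3 read 3.57 to 6.86 in sham and 4.69 to 8.59 in banding, highest on banding replicates 5 and 4, while Myh1, Myh2 and Myh4 lay at the lowest value of the table on all banding arrays. In whole tissue, fewer cells of a type and less RNA per cell cannot be told apart. The part that these markers play in the changes below was not tested.

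Ckm, the muscle subunit that forms the main cytosolic creatine kinase of the heart, was lower in banding. Sham replicates 1 to 4 read 14.60, 14.62, 14.70 and 14.62, and banding replicates 1 to 5 read 14.33, 13.89, 14.17, 13.48 and 13.49. The sham arrays lay close together, and every banding array was below them, with replicates 4 and 5 lowest. The mean fell from 14.64 ± 0.04 (SD, n = 4) to 13.87 ± 0.39 (SD, n = 5), a change of -0.76 ± 0.19 log2 units (SE, limma adjusted p = 0.0153), or 1.70-fold. Skeletal muscle is also rich in Ckm. On sham replicate 4, which had the highest skeletal muscle marker mean, Ckm read 14.62, and without that array the change was -0.77 (adjusted p = 0.0374). Without both sham replicate 4 and banding replicate 5, the array of its group with the most liver transcripts, the change was -0.67 and did not pass (adjusted p = 0.0642).

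A second, much dimmer probe set of Ckm gave a larger fall with less spread. It read 7.43, 7.34, 7.49 and 7.15 in sham and 6.34, 6.00, 6.36, 6.04 and 6.12 in banding, without overlap. Its change was -1.18 ± 0.10 log2 units, or 2.26-fold (limma over all 34945 probe sets, adjusted p = 0.000175), where 16.1% of all probe sets were lower in that test. The brighter probe set lies within 3 log2 units of the highest value in the table, 16.43.

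Ckmt2, which encodes the sarcomeric mitochondrial creatine kinase, was also lower, by less. Its values were 14.96, 14.86, 14.90 and 14.97 in sham and 14.77, 14.60, 14.71, 14.33 and 14.44 in banding, so the groups were separate by a narrow gap. The change was -0.35 ± 0.09 log2 units (SE, limma adjusted p = 0.0190), or 1.28-fold. Leaving out sham replicate 1 ended the call (-0.34, adjusted p = 0.0525), as did leaving out sham replicate 4 (-0.34, adjusted p = 0.0515). It was lost too without sham replicate 4 and banding replicate 5 together (-0.30, adjusted p = 0.101). The gene has 1 probe set on the array, also near the top of the scale.

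Ckb, the brain-type subunit that the fetal heart uses and that non-muscle cells also express, was higher in banding. It stood at 9.37, 9.29, 9.59 and 9.28 on the sham arrays and at 10.24, 10.18, 9.97, 10.47 and 10.40 on the banding arrays. The lowest banding array, replicate 3, was above the highest sham array, also a replicate 3. Expression rose from 9.38 ± 0.14 (SD, n = 4) to 10.25 ± 0.19 (SD, n = 5), by 0.87 ± 0.11 log2 units (SE, limma adjusted p = 0.000662), or 1.83-fold. Of all genes, 90.4% had a lower difference. Beside it, the mean of the smooth muscle markers lay at 8.56 to 9.34 in sham and 10.06 to 10.98 in banding. That of the fibroblast markers lay at 10.83 to 11.25 and 13.45 to 13.74. Single fibroblast markers rose by unlike amounts, from 0.45 for Dcn and 0.54 for Pdgfra to 4.65 for Postn and 4.81 for Col1a1. The genes listed as smooth muscle markers were uneven, with Cnn1 higher by 4.75, Tagln by 2.55, Des by 1.03 and Acta2 by 0.33. Whether each of them, Des included, is particular to smooth muscle in this tissue was not tested. Myh11 differed by 0.15 and did not pass (limma adjusted p = 0.933). The part of smooth muscle cells and fibroblasts in the rise of Ckb was not tested.

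Slc6a8, the creatine transporter, was higher in banding on both of its probe sets. The brighter probe set read 10.95, 11.02, 11.21 and 10.86 in sham and 11.37, 11.40, 11.25, 11.38 and 11.56 in banding. The groups were close, with sham replicate 3 just under banding replicate 3. The rise was 0.39 ± 0.08 log2 units (SE, limma adjusted p = 0.00779), or 1.31-fold. The other probe set read 9.07, 9.12, 9.46 and 9.15 in sham and 9.91, 9.86, 9.68, 9.76 and 9.99 in banding, also without overlap, and rose by 0.64 ± 0.10 (limma over all probe sets, adjusted p = 0.00173), or 1.56-fold. Transcripts of the uptake step and of the muscle kinases went opposite ways on the same arrays.

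Ak1, the cytosolic adenylate kinase of muscle, had the largest fall among the probe sets that represent the 7 genes. The dimmer probe set of Ckm fell by 1.18. Values of Ak1 were 12.42, 12.43, 12.36 and 12.25 in sham and 11.86, 11.41, 11.62, 11.25 and 11.22 in banding. All banding arrays were lower, with replicate 1 nearest to sham. The change was -0.89 ± 0.14 log2 units (SE, limma adjusted p = 0.00147), or 1.85-fold, and 7.96% of all genes had a lower difference. A second probe set of Ak1 read 5.40, 5.47, 3.87 and 5.27 in sham and 3.87 on banding replicates 1 to 4 and 3.73 on replicate 5. It was dim in banding and on sham replicate 3, so the groups overlapped, and its fall was at least 1.75-fold (-1.16 ± 0.33, limma over all probe sets, adjusted p = 0.0298).

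Ak4, a matrix protein of the adenylate kinase family, was lower on both probe sets that detected it well. The probe set that represents it read 9.85, 9.79, 9.57 and 9.72 in sham and 8.91, 9.18, 8.68, 9.26 and 8.96 in banding, without overlap. The change was -0.74 ± 0.12 log2 units (SE, limma adjusted p = 0.00226), or 1.67-fold. A second probe set read 8.62, 8.75, 8.54 and 8.79 in sham and 7.65, 8.38, 7.84, 8.45 and 8.13 in banding, and fell by 0.58 ± 0.18 (limma over all probe sets, adjusted p = 0.0403), or 1.5-fold. Of the other 3 probe sets, 1 lay at the lowest value of the table on all 9 arrays, 1 was dim in both groups at 2.20 to 2.36, and 1 was at 4.85 on 6 arrays with a difference of 0.18 ± 0.13 that did not pass (adjusted p = 0.437). With the mean of all 5 probe sets, which takes in these 3, the change of the gene was -0.24 (adjusted p = 0.0404).

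Ak3, the matrix GTP:AMP phosphotransferase, gave different answers on its 3 probe sets. The brightest, which represents the gene, read 11.54, 11.54, 11.64 and 11.71 in sham and 11.71, 11.36, 11.52, 11.43 and 11.35 in banding. Banding replicate 1 lay at the level of the highest sham array, and the other banding arrays were below all sham arrays. The difference of -0.13 ± 0.08 log2 units did not pass (limma adjusted p = 0.269, 95% interval -0.32 to 0.06), though it passed without banding replicate 1 (-0.19, adjusted p = 0.0332).

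The other probe sets of Ak3 were lower in banding without overlap, as 15.8% of all probe sets were. The first read 11.02, 11.02, 11.12 and 11.03 in sham and 10.67, 10.52, 10.58, 10.43 and 10.42 in banding, a change of -0.52 ± 0.06 (limma over all probe sets, adjusted p = 0.0004). The second read 9.02, 8.89, 9.17 and 8.90 in sham and 8.63, 8.31, 8.31, 8.69 and 8.39 in banding, a change of -0.53 ± 0.11 (adjusted p = 0.00654). When the 3 probe sets were averaged, Ak3 changed by -0.39 (adjusted p = 0.00188), so its result depends on the probe set chosen. Over all 16 probe sets, 9 were lower, 3 were higher and 4 did not pass, where 16.1% and 15.3% of all probe sets were lower and higher. Dim probe sets are counted in those shares, while only 2 of the 16 were dim in both groups. They are therefore not like shares, and no excess is read from them.

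**Figure D2:**
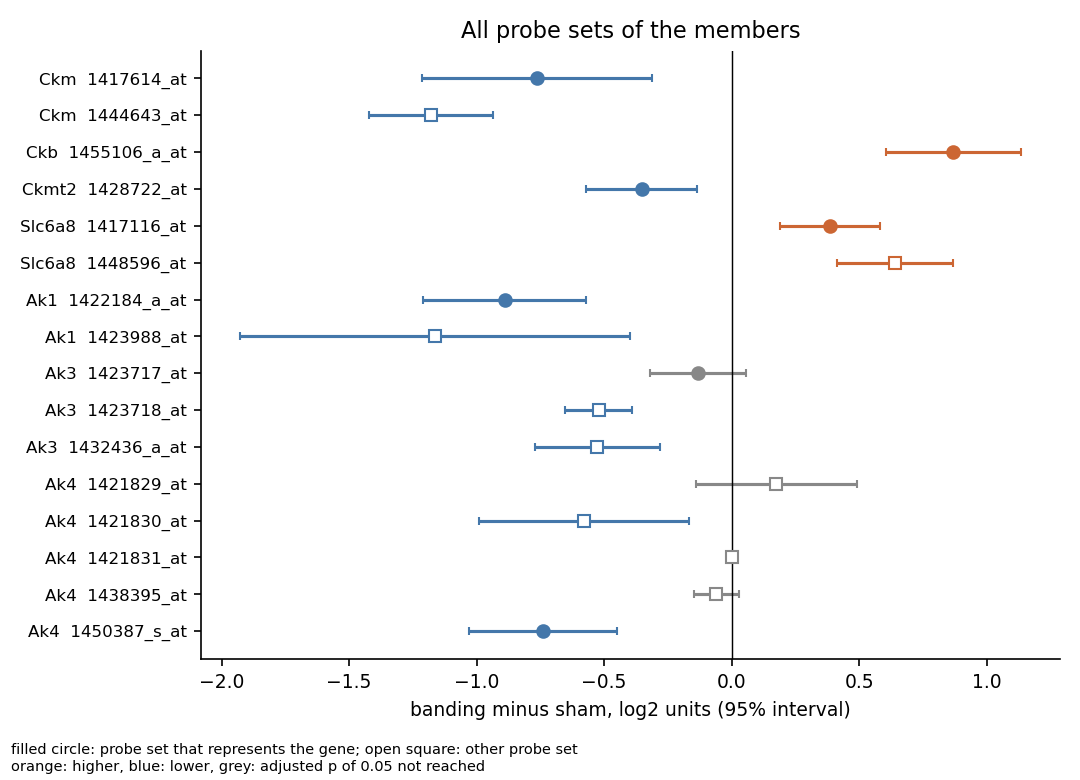
Banding minus sham difference in log2 units for all 16 probe sets, with 95% intervals from limma fitted over 34945 probe sets (filled circles, the probe set that represents the gene; open squares, the others; colours give the direction of those with an adjusted p under 0.05). Both probe sets of Ckm and of Slc6a8 moved one way, while Ak3 and Ak4 each have probe sets that passed and others that did not.

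Whether 2 of these genes changed by different amounts was tested within arrays, on the per-array difference between their log2 values, for 5 pairs. The two-sided exact permutation test went through all 126 ways to assign 5 of the 9 arrays to banding, so no p under 0.00794 can arise. Only the change of each difference between groups can be read, since levels of different probe sets are not comparable. The difference Ckb minus Ckm, the brain against the muscle subunit, was -5.34 to -5.11 on the sham arrays and -4.20 to -3.01 on the banding arrays. It moved towards Ckb on every banding array, by 1.63 ± 0.25 log2 units (SE, exact permutation p = 0.00794, adjusted over the 5 pairs 0.0198). The transporter moved against Ckm in the same direction, with Slc6a8 minus Ckm rising by 1.15 ± 0.22 (exact permutation p = 0.00794, adjusted 0.0198). Every banding array lay below every sham array for Ckm and above for Ckb and Slc6a8. With groups of 5 and 4, such separation alone leaves only 0.00794 or 0.0159 as possible p-values. For these pairs the test therefore adds nothing to the calls above.

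Ckmt2 fell by less than Ckm. Their difference rose from 0.20 to 0.36 in sham to 0.44 to 0.95 in banding, by 0.41 ± 0.10 log2 units (exact permutation p = 0.0159, adjusted 0.0265). Ak1 and Ckm fell by amounts that the test did not separate, with a change of -0.13 ± 0.08 in Ak1 minus Ckm (exact permutation p = 0.183). Between the matrix enzymes, Ak4 minus Ak3 changed by -0.61 ± 0.17 (exact permutation p = 0.0238, adjusted 0.0298). That last result rests on the probe sets that represent the genes, since it was 0.15 (adjusted p = 0.327) when all probe sets were averaged and without _x_at and _s_at probe sets -0.45 (adjusted p = 0.149).

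**Figure D3:**
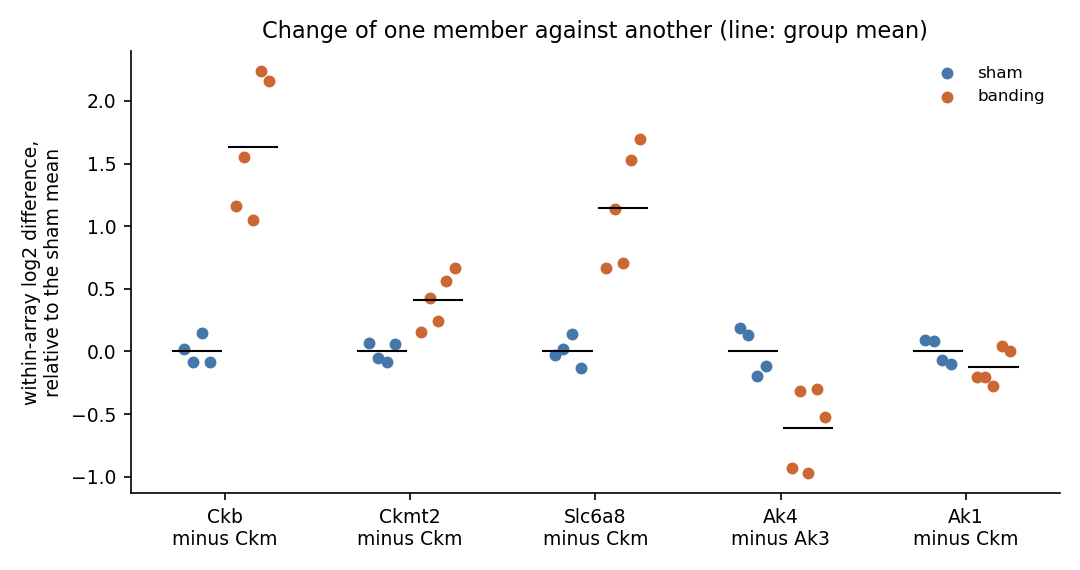
Within-array log2 difference between 2 genes for 5 pairs, shown relative to the sham mean of each pair (blue, 4 sham arrays; orange, 5 banding arrays; lines, group means). Ckb and Slc6a8 moved up against Ckm on every banding array, and Ak1 minus Ckm overlaps between groups.

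The genes also varied among the banding arrays. The sham SD of Ckm was 0.04 and its banding SD 0.39, those of Ckmt2 were 0.05 and 0.18, and those of Ak1 0.08 and 0.27. Ckm and Ckmt2 shared the order of the banding arrays, with replicate 1 highest, then 3, 2, 5 and 4, and Ak1 differed only in placing 4 above 5. The mean of the 12 cardiomyocyte markers stood at 14.93, 14.78, 14.85, 14.70 and 14.69 on banding replicates 1 to 5, the order of Ak1. Single markers did not all share it. Myh6, Myl2, Myl3, Pln and Tcap had the order of Ak1, and Tnni3 and Ttn that of Ckm. Tnnt2, Ryr2 and Mybpc3 were highest on replicate 5, and Actc1 and Actn2 had neither order. Ckb was highest on replicates 4 and 5 and lowest on replicate 3. Ak4, which was also lower in banding than in sham, had its highest banding values on replicates 4 and 2 and its lowest on 3, so it did not share the order of Ckm. With 5 arrays, no correlation was computed for this spread.

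**Figure D4:**
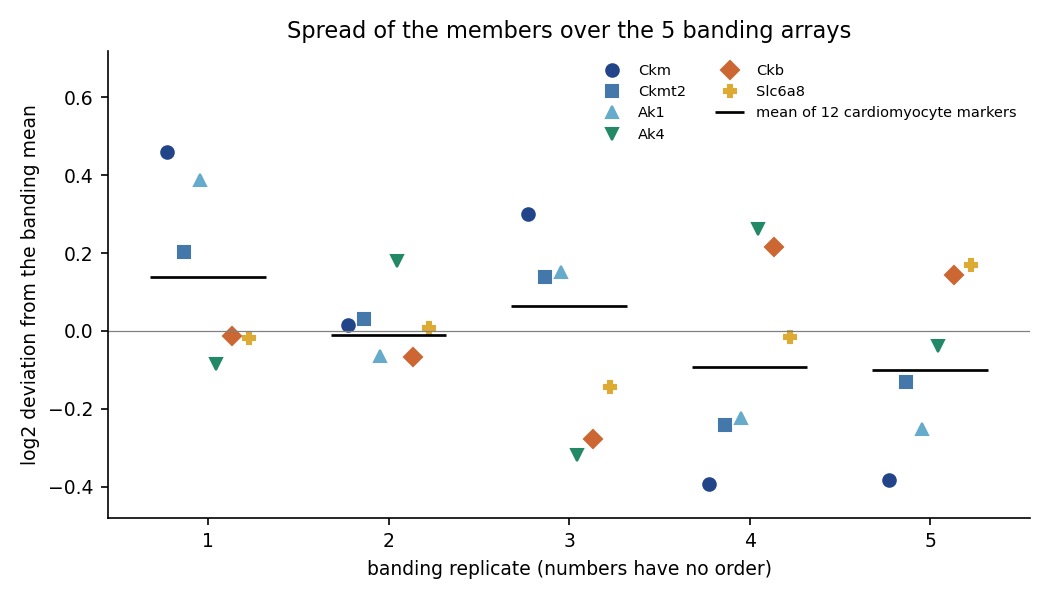
Deviation of 6 genes from their own mean over the 5 banding arrays in log2 units (1 symbol per gene and array; black lines, the mean of 12 cardiomyocyte markers, treated the same way). Ckm, Ckmt2, Ak1 and the marker mean are above their means on replicates 1 and 3 and below on 4 and 5, where Ckb is above its mean.

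By likeness of pattern over all 9 arrays, the gene closest to Ckm was Myl3, a ventricular myosin light chain (Pearson r = 0.998), followed by Scara5 (r = 0.993). Myl3 changed by -0.24 ± 0.06 log2 units. Rps6, a ribosomal protein gene, and Selenom were closest to Ckb (r = 0.997 and 0.993), Mrpl42 and Carnmt1 to Ak1 (both r = 0.998), and Btbd11 and R3hdm2 to Ckmt2 (r = 0.992 and 0.986). Gskip and Shisa3 were closest to Slc6a8 (r = 0.983 and 0.975), Rnf113a2 and Spring1 to Ak4 (r = 0.968 and 0.955), and Gdf10 and Dop1a to Ak3 (r = 0.929 and 0.920). These values describe arrays that share the split into 2 groups, which alone gives high correlations. Of 10094 genes compared, 1154 had an r over 0.95 with Ak1, 414 with Ckb, 352 with Ckm, 133 with Ckmt2, 24 with Slc6a8, 7 with Ak4 and 0 with Ak3.

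Other genes of phosphotransfer were read from a fixed list, of which 43 of 51 symbols were found. Of these 43, 16 were lower and 9 were higher, so 58.1% passed. The shares to set beside this were 38.4% of all genes and 62.0% of all genes not dim in both groups. Both groups were dim for 8 of the 43, so the 62.0% is not a like share. No excess or shortfall is read from it. The median difference was -0.09. The other 8 symbols were not analysed here.

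Genes that move ATP, ADP and phosphate across the mitochondrial membranes had 5 of 7 members lower and 0 higher, and 1 of the 7 was dim in both groups. Of all genes, 20.0% were lower, and of the genes not dim in both groups 62.0% passed. Slc25a4, the main ATP-ADP carrier of heart, changed by -0.31 ± 0.06 log2 units (limma adjusted p = 0.0049), and the phosphate carrier Slc25a3 by -0.30 ± 0.06 (adjusted p = 0.00608). The 3 outer membrane channels fell together, Vdac1 by 0.40 ± 0.07, Vdac2 by 0.32 ± 0.05 and Vdac3 by 0.44 ± 0.06 (adjusted p from 0.000904 to 0.00294). Slc25a5, the ATP-ADP carrier of many non-muscle tissues, stood at 13.47 ± 0.12 in sham and 13.57 ± 0.06 in banding and did not pass (adjusted p = 0.276). Its difference of 0.10 became 0.22 when its probe sets were averaged (adjusted p = 0.00874), 0.16 after quantile normalisation (adjusted p = 0.0493) and -0.16 without _x_at and _s_at probe sets.

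Creatine synthesis, which takes place mainly in kidney and liver, showed no call, with 0 of 2 genes passing. Gatm, which makes the precursor guanidinoacetate, differed by 0.44 ± 0.21 (limma adjusted p = 0.148) and passed only without banding replicate 4 among the arrays left out singly (0.61, adjusted p = 0.00695). Gamt, which methylates guanidinoacetate to creatine, differed by -0.14 ± 0.27 (adjusted p = 0.815). Its highest value, 6.06, was on sham replicate 4, whose liver marker mean of 13.39 was the highest, and without that array the difference was 0.15. Ckmt1, the mitochondrial creatine kinase of non-muscle tissues, was dim in both groups at 2.25 and 2.26.

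Of 13 other kinases found, Ckmt1 among them, 6 passed, 4 of them lower (Nme4 while dim in both groups) and 2 higher. This was a share of 46.2% against 38.4% of all genes and 62.0% of those not dim in both groups. As 5 of the 13 were dim in both groups, the 62.0% is not a like share. Guk1, which phosphorylates GMP, fell by 1.07 ± 0.10 log2 units (limma adjusted p = 0.0002), or 2.10-fold, and Nme6, a nucleoside diphosphate kinase, by 0.95 ± 0.12 (adjusted p = 0.000618), or 1.93-fold. Nme2, the major nucleoside diphosphate kinase, changed by -0.10 ± 0.01 (adjusted p = 0.00117), a call lost when dim genes were left out (adjusted p = 0.103) and after quantile normalisation (-0.03, adjusted p = 0.340). Cmpk1 and Cmpk2, chosen after their values were seen as the only rises, were higher by 0.43 ± 0.08 and 1.26 ± 0.25.

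In AMP and adenine nucleotide handling 7 of 11 genes passed, with 5 higher and 2 lower, and 1 of the 11 was dim in both groups. This 63.6% stands beside 38.4% of all genes and 62.0% of those not dim in both groups, and no excess is read from it. Ada, which deaminates adenosine, was dim in sham and rose at least 4.46-fold (3.49 ± 0.29 log2 units, limma adjusted p = 0.000111), on arrays where 6 of 7 macrophage markers also rose. The part of macrophages in that rise was not tested. Adk, which returns adenosine to AMP, fell 1.83-fold (-0.87 ± 0.10, adjusted p = 0.000364) and Adsl, an enzyme of purine synthesis, fell 1.85-fold (-0.89 ± 0.08, adjusted p = 0.000153). Ampd3, an AMP deaminase, differed by -0.20 ± 0.10 and did not pass (adjusted p = 0.181). Ampd2, another AMP deaminase, named here after its values were seen, was higher by 1.89 ± 0.55 (adjusted p = 0.0276), with overlap between groups (5.01 to 8.00 in sham, 7.89 to 8.48 in banding). That call was lost on leaving out any 1 of sham replicates 1 and 2 or banding replicates 2, 3, 4 and 5 (1.75 to 1.94, adjusted p from 0.0524 to 0.0755).

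The AMP-activated kinase senses the AMP that adenylate kinases produce. Of 10 genes of the kinase and its activators, 5 were lower and 2 were higher, so 70% passed. The share was 62.0% among all genes not dim in both groups, while 1 of these 10 was dim in both. Prkaa2, the catalytic subunit that prevails in heart, fell 1.96-fold (-0.97 ± 0.07 log2 units, limma adjusted p = 8.37e-05), Prkab1 2.54-fold (-1.34 ± 0.23, adjusted p = 0.00238), Prkag1 1.58-fold (-0.66 ± 0.09) and the upstream kinase Stk11 1.85-fold (-0.89 ± 0.11). The rises were in Prkaa1, the other catalytic subunit, by 0.61 ± 0.15 (adjusted p = 0.0140) and in Prkag2 by 0.68 ± 0.12 (adjusted p = 0.00259), both chosen after their values were seen. The call of Prkaa1 was lost without sham replicate 4 and banding replicate 5 together (0.60, adjusted p = 0.0712). Prkab2, the other beta subunit, differed by 0.62 ± 0.26 with overlapping groups and did not pass (adjusted p = 0.114), except when dim genes were left out of the adjustment (adjusted p = 0.0455), and Prkag3 was dim in both groups.

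**Figure D5:**
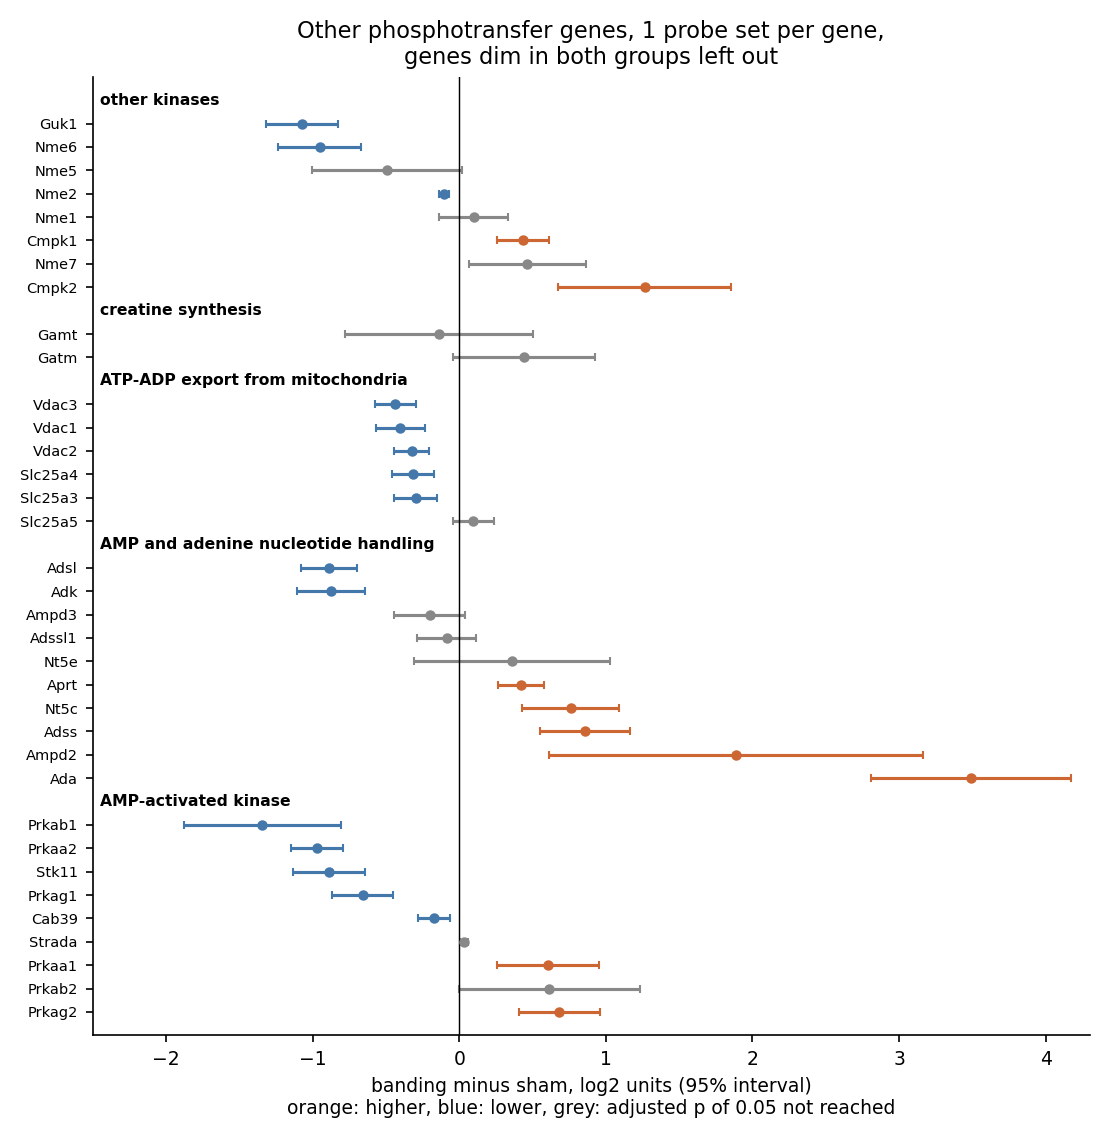
Banding minus sham difference in log2 units, with 95% intervals from limma, for the listed phosphotransfer genes that were not dim in both groups, by role (orange, higher; blue, lower; grey, adjusted p of 0.05 not reached). The mitochondrial channels and carriers that passed lie between -0.44 and -0.30, and the genes of adenine nucleotide handling lie on both sides of 0.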

How the data were processed

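Total RNA of right ventricle was hybridised to one-colour Affymetrix mouse arrays, with 5 banding and 4 sham samples. The authors deposited log2 expression per probe set, already background corrected and normalised; RMA and GCRMA are the methods listed in the submitters' processing notes, with nothing on which was used where. Values ran from 2.20 to 16.43. Control probe sets (64), those naming no gene (9160) and those naming several (932) were left out. Gene names are those of the platform annotation, and the symbols of all 16 probe sets match RefSeq by gene ID.

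The comparison of banding with sham was fitted in limma 3.58.1 (R 4.3.3; lmFit, eBayes, two-sided, no covariates), once with 1 probe set per gene and once with all probe sets. The number of arrays limits the precision. On simulated data for the comparison with 1 probe set per gene, 50 genes were changed at each size. There limma called 42% of changes of 0.5 log2 units and 74% of changes of 1, with 9 false calls among 17993 unchanged genes. In the data 38.4% of genes passed, a far larger share than was changed in the simulation. The adjustment depends on that share, so these rates are not those of the real comparison. Pairs of genes were tested by exact permutation in Python 3.11.15.

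Genes named were the 7 members, 9 fixed pathway genes, up to 3 more per sublist with the smallest p, and the 2 genes above the dim level with the highest correlation per member, leaving out clone and model names; Cmpk1, Cmpk2, Nme4, Ampd2, Prkaa1, Prkag2, Prkab2 and Prkag3 were added after their values were seen. Members and lists were chosen with earlier results of these data known. Replicate numbers did not pair the arrays. The alternatives tried were other summaries of probe sets, filters, scalings and variance models, a replicate block and leaving out arrays.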

Additional observations from a re-analysis of the deposited data

Results flagged for a closer look

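Single arrays stood apart from the others of their group, by Dixon's criterion for groups of 4 or 5, in 16 of 115 groups examined. For values without ties, chance gives about 1 in 20. Some of these groups, as for Ckmt1 and the dim probe sets, held tied values, where any array that differs is flagged. The count therefore cannot be set against that rate. None of the values that represent the 7 genes was among them.

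Among the other probe sets, the dim probe set of Ak1 was at 3.73 on banding replicate 5 with the others at 3.87, and at 3.87 on sham replicate 3 with the others from 5.27 to 5.47. A probe set of Ak3 was at 11.12 on sham replicate 3, above 11.02 to 11.03. A low probe set of Ak4 reached 5.45 on banding replicate 4 and 4.68 on sham replicate 4, with most others at 4.85, and another, dim in both groups, was at 2.28 on banding replicate 5 with the other banding arrays at 2.20.

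In the wider list, Ckmt1 was at 2.30 on banding replicate 4, Gatm at 4.94 on banding replicate 4, Gamt at 5.46 on banding replicate 2 and 6.06 on sham replicate 4, Slc25a4 at 16.09 on sham replicate 2, Guk1 at 9.53 on banding replicate 1 and 10.63 on sham replicate 3, and Ada at 3.10 on sham replicate 1. The mean of the skeletal muscle markers was 5.91 on sham replicate 4, and that of the liver markers 5.11 on banding replicate 5.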

How the results depend on the processing

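Of 19 alternatives per gene, Ckb, Ak1 and Ak4 kept their direction and passed in all, with differences of 0.80 to 0.94, -1.03 to -0.83 and -0.81 to -0.24. Leaving out single arrays gave 2 members higher and 3 to 5 lower. Slc6a8 passed in all but the replicate block (0.34, adjusted p = 0.0904). With that block, 1 member was higher (Ckb) and 2 were lower (Ak1 and Ak4), since Ckm (-0.67, adjusted p = 0.0734) and Ckmt2 (-0.32, adjusted p = 0.113) did not pass either. Same-numbered arrays deviated from their group means with correlations of -0.034 to 0.036, and 0 of 4 sham arrays correlated best with its own number, so the numbers were not taken to pair the arrays. Under the block 2549 genes of the whole table were higher and 2728 lower, against 3356 and 3633 without it, and the fit has fewer residual degrees of freedom.

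Without sham replicate 4 and banding replicate 5 together, an alternative chosen after seeing the data, 2 members were higher and 2 lower, and Gamt differed by 0.18. The change of Ak4 minus Ak3 was 0.15 when all probe sets were averaged and -0.45 without _x_at and _s_at probe sets, because other probe sets then stand for the genes; the other 4 pairs kept their direction and side of the threshold. Directions also turned, without passing, for Ckmt1 when its probe sets were averaged (-0.0034) and with arrays centred on their medians (-0.0201), for Slc25a5 without _x_at and _s_at probe sets (-0.16) and for Gamt with single arrays left out (-0.26 to 0.15); the cause was not tested. Signal near the lowest value limits the dim probe sets of Ak1 and Ak4, and signal near the top those of Ckm and Ckmt2.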
